A study of Mus musculus with 19 samples.

Results

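The genes described here encode the enzymes of the mevalonate pathway up to farnesyl diphosphate, with the enzyme that extends its product. They are Acat2, Hmgcs1, Mvk, Pmvk, Mvd, Idi1, Fdps and Ggps1, taken by symbol as cholesterol synthesis steps before squalene. All 8 were among the 55836 genes listed, and all 8 were among the 13597 genes that passed the filter on low counts. Bulk RNA-seq was performed on liver from 19 wild-type (WT) male C57BL/6 mice, 1 library per mouse. Mice were 8 weeks old at the start and were fed for 8 weeks either a control diet (CD) with 10 kcal% fat or a MASH diet (MD) with 2% cholesterol, 20 kcal% fructose and 40 kcal% fat. MASH is metabolic dysfunction-associated steatohepatitis, the inflamed form of fatty liver. Over the same 8 weeks every mouse was gavaged daily, in the PE groups with 2 mg of polyethylene (PE) microplastic particles suspended in 0.1% Tween 20 and in the vehicle groups (Veh) with the suspending solution alone. CD + Veh held 4 mice, and 5 mice each were in CD + PE, MD + Veh and MD + PE. Because MD differs from CD in fat, fructose and cholesterol together, an effect of any one of these cannot be told apart from the others.

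The mevalonate pathway builds isoprenoid units from acetyl-CoA in the cytosol. Acat2 joins a pair of acetyl-CoA molecules, Hmgcs1 adds a further one, and the mevalonate made from the product is phosphorylated by Mvk and Pmvk and decarboxylated by Mvd to isopentenyl diphosphate. Idi1 interconverts isopentenyl and dimethylallyl diphosphate, Fdps condenses these into farnesyl diphosphate, and Ggps1 extends farnesyl to geranylgeranyl diphosphate, which is attached to small GTPases. Farnesyl diphosphate is the branch point between sterols, prenylated proteins, dolichol and ubiquinone. The liver is a main site of cholesterol synthesis, and textbook knowledge places most of these genes under the transcription factor SREBP-2 (Srebf2), which is held in the endoplasmic reticulum by Scap and Insig proteins when membrane cholesterol is high.

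Because SREBP-2 acts at promoters together with the CCAAT-binding factor NF-Y, the DNA upstream of the start sites was read from the GRCm39 genome for genes on which the results turn. The sterol response element of SREBP target genes was searched as TCACNCCA and the NF-Y motif as CCAAT, on both strands, in windows from 250 bases before to 50 bases after the start of the canonical GENCODE vM39 transcript. TCACNCCA occurred in 1 of 8 windows, that of Hmgcs1, and in 4.07% of the 21734 windows of protein-coding genes. Only these exact letters were searched, so a window without them is not shown to lack a variant of the element. CCAAT occurred in 5 of 8 windows, among them those of Hmgcs1, Mvk, Idi1 and Ggps1, and in 39.9% of all windows. The stretches before the start are shown for Hmgcs1, which carries both motifs, for Idi1, whose transcript varied the most between groups, and for Ggps1, which has the same CCAAT letters but whose transcript varied the least. Capitals mark TCACNCCA and CCAAT, the latter written ATTGG where it lies on the opposite strand, and each sequence is printed 5′ to 3′ on the strand of its gene.
Hmgcs1, chr13:120151732-120151981, plus strand: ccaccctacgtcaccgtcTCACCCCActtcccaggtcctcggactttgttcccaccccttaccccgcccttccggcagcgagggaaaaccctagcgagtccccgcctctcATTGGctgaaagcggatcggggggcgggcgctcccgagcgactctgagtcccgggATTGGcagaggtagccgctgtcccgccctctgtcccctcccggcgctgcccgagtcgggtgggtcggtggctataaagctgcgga
Idi1, chr13:8935669-8935918, plus strand: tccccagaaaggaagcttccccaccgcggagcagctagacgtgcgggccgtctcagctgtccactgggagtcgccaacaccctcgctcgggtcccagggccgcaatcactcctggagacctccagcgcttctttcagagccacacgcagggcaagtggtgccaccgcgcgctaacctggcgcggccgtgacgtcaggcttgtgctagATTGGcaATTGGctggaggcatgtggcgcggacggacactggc
Ggps1, chr13:14238074-14238323, minus strand: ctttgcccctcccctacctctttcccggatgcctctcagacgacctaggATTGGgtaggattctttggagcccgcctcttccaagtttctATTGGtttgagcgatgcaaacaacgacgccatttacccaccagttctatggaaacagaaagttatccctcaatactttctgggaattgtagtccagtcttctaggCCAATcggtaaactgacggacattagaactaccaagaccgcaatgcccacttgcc

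The capitals show 2 copies of CCAAT upstream of Hmgcs1 and of Idi1, and 3 upstream of Ggps1. A match is a description of letters in a window and does not show that a factor was bound in these livers. The windows of Acat2, Pmvk and Mvd held neither motif. Windows follow the canonical transcript, whose start lies inside the annotated gene span for Pmvk, Fdps, Idi1 and Hmgcs1. Other annotated starts were not searched.

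The members are spread over 5 chromosomes. On GRCm39, Acat2 spans chr17:13161367-13179641 on the minus strand, Mvk chr5:114582267-114601803 on the plus strand, Pmvk chr3:89361758-89376323 on the plus strand and Mvd chr8:123160336-123170324 on the minus strand. Hmgcs1 (chr13:120151915-120170470, plus strand), Idi1 (chr13:8935537-8942487, plus strand) and Ggps1 (chr13:14224331-14238073, minus strand) share chromosome 13, and Fdps lies at chr3:89000888-89019213 on the minus strand. All 8 are protein-coding genes.

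Depth lay between 10398820 and 15456729 counts per library, with every PE library of a diet below every vehicle library of that diet. Hepatocyte markers summed to 47890 to 90350 CPM in every library, with Alb, Apoa1, Ttr, Cps1 and Cyp2e1 all detected, and markers of sinusoidal endothelium to at most 139 CPM. The 4 skeletal muscle markers summed to at most 20.6 CPM in CD + Veh and 1.38 CPM in MD + PE, but reached 252 CPM in CD + PE replicate 1 and 1775 CPM in MD + Veh replicate 1. Bile duct markers summed to 115 CPM in MD + PE replicate 2, against a group median of 12.95 CPM. The intestinal markers Vil1 (22.65 CPM) and Cdx2 (2.02 CPM) were highest in that library too, while Fabp2 was not the highest of all libraries there. The part of this content was not tested beyond leaving that library out. Column labels number the vehicle libraries 39 to 47 and the PE libraries 48 to 57, so that PE and the order of libraries cannot be told apart. A division runs between numbers 45 and 46: the ribosomal pseudogene Rps6-ps4 held 1088 to 1690 counts in libraries up to 45 and 0 in all others, and MD + Veh replicates 4 and 5 lie on the side of the PE libraries. A clock score, the mean log2 level of positive-arm minus negative-arm circadian genes, was −4.55 to −3.07 in CD + Veh, −2.92 to 0.88 in CD + PE, −2.10 to 0.15 in MD + Veh and −1.81 to −0.04 in MD + PE.

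Transcript levels were first compared between the genes per length, as CPM divided by the length of the canonical transcript in kilobases. Other transcripts of a gene were not taken into account, so the order of the genes may depend on this choice. In CD + Veh, Fdps stood highest at 444 ± 145 CPM per kilobase (SD, n = 4). It was followed by Hmgcs1 at 97.6 ± 32.0 and Pmvk at 96.2 ± 32.7, which did not differ beyond their spread, and by Idi1 at 77.3 ± 27.0 and Acat2 at 50.6 ± 18.9. Mvd stood at 21.5 ± 6.77, and Mvk at 3.61 ± 0.904 and Ggps1 at 1.59 ± 0.111 CPM per kilobase were the lowest. In MD + PE (SD, n = 5) this order had changed: Hmgcs1 at 28.9 ± 7.72 and Fdps at 23.3 ± 9.48 CPM per kilobase overlapped within their SD, and Mvk at 0.790 ± 0.136 lay below Ggps1 at 1.45 ± 0.123. Between the highest and the lowest group mean the level differed 24-fold for Idi1, 19-fold for Fdps, 12.9-fold for Mvd and 11.6-fold for Pmvk. The corresponding ratio was 4.57 for Mvk, 3.88 for Acat2, 3.37 for Hmgcs1 and 1.15 for Ggps1. For all genes but Ggps1 the group means descended in the order CD + Veh, CD + PE, MD + Veh, MD + PE.

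**Figure D1:**
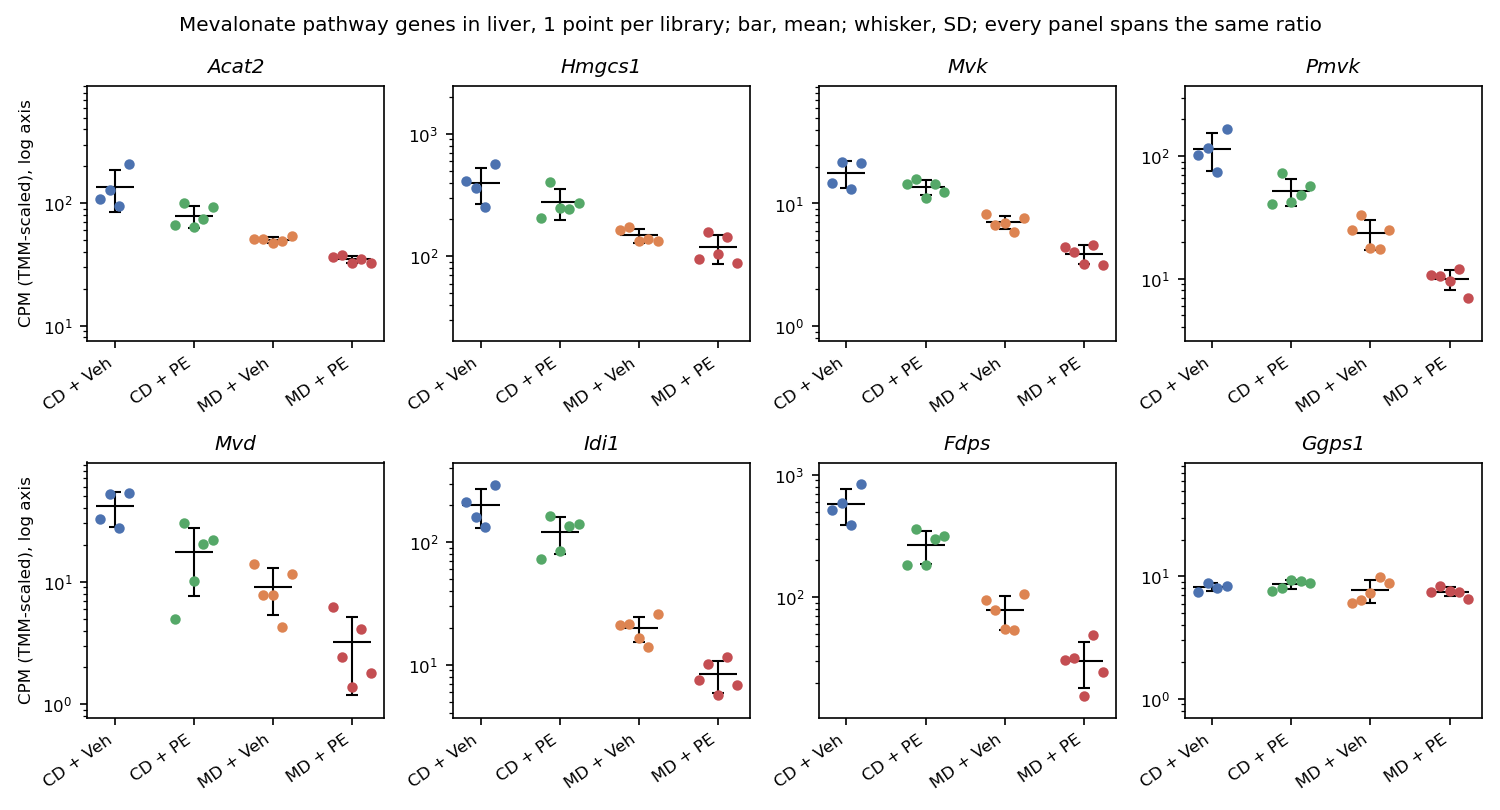
TMM-scaled CPM (log axis) of each of the 8 genes in the 19 libraries by group, 1 point per library, with the mean as a bar and the SD as a whisker. For 7 genes the points step down from CD + Veh to MD + PE, while those of Ggps1 stay between 6.08 and 9.83 CPM in all groups.

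MD + Veh was compared with CD + Veh to see what the MASH diet did to the pathway without PE. With MD, 7 of 8 genes fell and Ggps1 was not called, at a background of 5.63% of all genes tested called lower. A gene was called where its log2 fold change reached 0.38 in either direction with an adjusted p under 0.05 in edgeR's quasi-likelihood test with Benjamini-Hochberg adjustment over all 13597 genes. The median log2 fold change of the 8 genes was −1.80, against −0.004 over all genes tested. In the 7 genes every MD + Veh library lay below every CD + Veh library, which held in that direction for 8.88% of all genes tested. In bulk liver, fewer cells of a type and less RNA per cell cannot be told apart.

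The steepest falls were at the end of the pathway. Idi1 measured 214, 161, 134 and 293 CPM in the CD + Veh libraries and 21.2, 21.5, 16.6, 13.9 and 25.9 CPM in the MD + Veh libraries. The lowest CD + Veh library thus lay far above the highest MD + Veh library, and Idi1 fell to 9.9% of its CD + Veh level (log2 fold change −3.34, SE 0.27, adjusted p = 2.61e-07). Fdps measured 512, 585, 386 and 836 CPM in CD + Veh and 95.2, 78.7, 55.1, 54.2 and 107 CPM in MD + Veh. The groups did not overlap, and Fdps, the enzyme that makes farnesyl diphosphate, fell to 13.5% (log2 fold change −2.89, SE 0.30, adjusted p = 3.63e-06). Both genes were highest in CD + Veh replicate 4.

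The kinases and the decarboxylase fell by differing amounts. Pmvk, phosphomevalonate kinase, measured 102, 117, 73.6 and 167 CPM in CD + Veh and 25.0, 33.3, 17.7, 17.4 and 24.7 CPM in MD + Veh (log2 fold change −2.28, SE 0.23, adjusted p = 2.37e-06). Mvd, which forms isopentenyl diphosphate, measured 32.8, 51.9, 27.6 and 52.9 CPM in CD + Veh and 14.0, 7.81, 7.84, 4.26 and 11.7 CPM in MD + Veh. Its change was as large as that of Pmvk but less precise (log2 fold change −2.17, SE 0.42, adjusted p = 0.00173). Mvk, mevalonate kinase, fell from 14.8, 21.8, 13.1 and 21.3 CPM to 8.18, 6.63, 6.96, 5.88 and 7.65 CPM (log2 fold change −1.33, SE 0.16, adjusted p = 1.94e-05). In none of these genes did a library of one group reach into the other.

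The first enzymes of the pathway fell by amounts close to that of Mvk. Acat2, the cytosolic thiolase, measured 109, 128, 95.02 and 208 CPM in CD + Veh and 50.5, 50.6, 47.05, 48.7 and 53.6 CPM in MD + Veh. The MD + Veh libraries lay within a narrow band well below the lowest CD + Veh library (log2 fold change −1.43, SE 0.17, adjusted p = 2.11e-05). Hmgcs1, the cytosolic HMG-CoA synthase, fell from 413, 363, 254 and 569 CPM to 164, 175, 133, 140 and 133 CPM (log2 fold change −1.42, SE 0.22, adjusted p = 0.000258). Ggps1 measured 7.46, 8.81, 8.05 and 8.42 CPM in CD + Veh and 6.08, 6.38, 7.30, 9.83 and 8.88 CPM in MD + Veh. Its groups overlapped, and the 95% confidence interval of its log2 fold change ran from −0.37 to 0.18 (adjusted p = 0.689).

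Values of other measures moved with diet as well. Skeletal muscle markers were called higher in MD + Veh for 4 of 4, and with MD + Veh replicate 1, which held most of their reads, left out, 7 of the 8 pathway genes were again called. Hepatocyte markers were called lower in 2 of 5 and higher in 1 of 5. All 4 genes of the positive arm of the clock were called higher, and with the clock score as a covariate 7 of the 8 pathway genes were called. The clock scores of CD + Veh (−4.55 to −3.07) and MD + Veh (−2.10 to 0.15) did not overlap. The covariate therefore cannot tell clock and diet apart. Among libraries numbered up to 45 only, a fit added after the data had been seen, 7 of 8 were called too.

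CD + PE was compared with CD + Veh to ask what PE did on the control diet. Pmvk, Fdps and Acat2 fell, 3 of 8 genes against a background of 1.70% of all genes tested called lower, and the other 5 were not called. The median log2 fold change was −0.75, against 0.01 over all genes tested. Groups did not overlap for Pmvk and Fdps, 2 of 8, as for 4.35% of all genes tested in that direction. This comparison and that of MD + Veh share the CD + Veh libraries.

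Pmvk measured 40.5, 72.4, 42.02, 48 and 56.8 CPM in CD + PE, all below the lowest CD + Veh library at 73.6 CPM. This is 45.2% of the CD + Veh level (log2 fold change −1.14, SE 0.22, adjusted p = 0.00729). Fdps measured 182, 363, 184, 298 and 314 CPM in CD + PE, with replicate 2 just under the lowest CD + Veh library at 386 CPM (log2 fold change −1.11, SE 0.29, adjusted p = 0.0380). Acat2 measured 65.8, 99.99, 63.4, 73.7 and 92.7 CPM, and only replicate 2 reached above CD + Veh replicate 3 (log2 fold change −0.77, SE 0.17, adjusted p = 0.0160).

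Among the genes that were not called, Mvd had the largest difference but also the widest spread. It measured 4.98, 30.0, 10.2, 20.5 and 21.9 CPM in CD + PE, and replicate 2 lay inside the CD + Veh range (log2 fold change −1.24, SE 0.41, adjusted p = 0.102). Idi1 measured 72.9, 165, 84.7, 136 and 142 CPM (log2 fold change −0.74, SE 0.25, adjusted p = 0.115), overlapping CD + Veh in 3 of its 5 libraries. Hmgcs1 (206, 406, 246, 244 and 274 CPM) and Mvk (14.4, 15.9, 11.04, 14.4 and 12.4 CPM) had log2 fold changes of −0.54 and −0.38 (adjusted p = 0.192 and 0.203). Ggps1 measured 7.64, 7.98, 9.36, 9.24 and 8.89 CPM, with a log2 fold change of 0.07 and a 95% confidence interval from −0.20 to 0.35 (adjusted p = 0.840).

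The count for CD + PE rested on single libraries. It was 1 without CD + Veh replicate 4, the highest library of its group in 6 of 8 genes, and 1 without CD + PE replicate 3. It was 1 with the clock score as a covariate, where the median log2 fold change of the 8 genes was −0.77 and the median SE 0.29. With the division of libraries as a covariate, which in this comparison coincides with PE and is estimated from MD + Veh alone, it was 0. There the median log2 fold change of the 8 genes was −0.78 and the median SE 0.38, against −0.75 and 0.22 without the covariate. With all libraries thinned to equal depth 3 genes were called. The clock scores of CD + Veh (−4.55 to −3.07) and CD + PE (−2.92 to 0.88) did not overlap. The covariate fits therefore cannot tell PE apart from the clock genes or from library order.

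MD + PE was compared with MD + Veh to ask what PE did on the MASH diet. Mvk, Pmvk, Idi1 and Fdps fell further, 4 of 8 genes at a background of 0.934% of all genes tested called lower, and the other 4 were not called. The median log2 fold change was −1.05, against −0.01 over all genes tested. In Acat2, Mvk, Pmvk, Idi1 and Fdps every MD + PE library lay below every MD + Veh library, 5 of 8 genes, where 2.49% of all genes tested did so.

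Pmvk measured 10.6, 10.44, 9.47, 11.9 and 6.91 CPM in MD + PE, each below the lowest MD + Veh library at 17.4 CPM (log2 fold change −1.25, SE 0.23, adjusted p = 0.00857). Mvk measured 4.39, 4.04, 3.22, 4.60 and 3.14 CPM, below the lowest MD + Veh library at 5.88 CPM, and fell to 55.2% (log2 fold change −0.86, SE 0.16, adjusted p = 0.0119). The lowest of these values is 35 counts, so that single libraries carry a visible counting error.

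Fdps measured 30.6, 31.7, 15.7, 49.5 and 24.8 CPM in MD + PE. The highest of these lay just under the lowest MD + Veh library at 54.2 CPM, and Fdps fell to 39.1% (log2 fold change −1.35, SE 0.29, adjusted p = 0.0224). Idi1 measured 7.56, 10.2, 5.65, 11.5 and 6.82 CPM, with replicate 4 nearest to the lowest MD + Veh library at 13.9 CPM (log2 fold change −1.24, SE 0.27, adjusted p = 0.0271).

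Acat2 was not called although its groups did not overlap: it measured 36.2, 38.1, 32.5, 34.7 and 32.6 CPM, a small and even difference (log2 fold change −0.52, SE 0.17, adjusted p = 0.117). Mvd measured 6.26, 2.44, 1.39, 4.12 and 1.80 CPM, and replicate 1 lay within the MD + Veh range (log2 fold change −1.49, SE 0.46, adjusted p = 0.107). Hmgcs1 measured 95.5, 159, 105, 145 and 87.8 CPM, which overlapped MD + Veh in 2 of its 5 libraries (log2 fold change −0.33, 95% confidence interval −0.77 to 0.11, adjusted p = 0.482). Ggps1 measured 7.48, 8.34, 7.56, 7.48 and 6.56 CPM (log2 fold change −0.04, 95% confidence interval −0.30 to 0.23, adjusted p = 0.928).

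The number of genes called in MD + PE against MD + Veh was 2 without MD + Veh replicate 1, MD + PE replicate 3 or MD + PE replicate 5, and between 3 and 5 without any other single library. With the division of libraries as a covariate it was 0, with a lowest adjusted p of 0.154 and 7 of 8 genes at an unadjusted p below 0.05. Among libraries numbered from 46 only, which leaves MD + Veh with replicates 4 and 5, it was 0 as well, with all 8 genes lower, a median log2 fold change of −0.93 and a lowest adjusted p of 0.155. With the clock score as a covariate 4 genes were called, and 4 with libraries thinned to equal depth. Skeletal muscle markers were called lower in MD + PE than in MD + Veh for 2 of 4, and their part in the result was not tested beyond leaving out MD + Veh replicate 1.

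**Figure D2:**
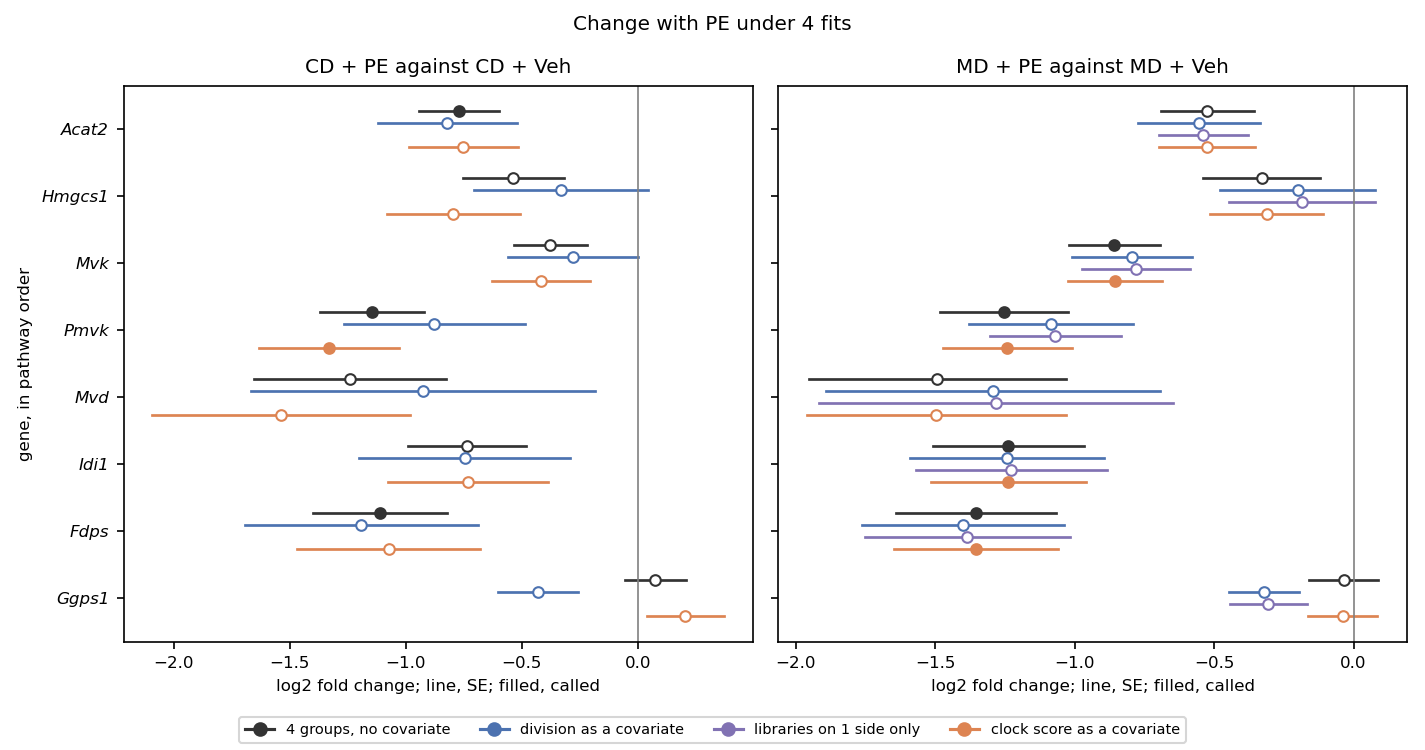
log2 fold change of the 8 genes with PE on CD (left) and on MD (right) under up to 4 fits, with the SE as a line and filled points for genes called. The fit within 1 side of the division is shown for MD only, because no CD + Veh library shares a side with CD + PE. The points of the fits with the division of libraries lie near those without it, and none is filled. Their lines are longer, except for Acat2 on MD within 1 side of the division, and Ggps1 lies lower in those fits than in the others.

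MD + PE was compared with CD + PE to measure the diet difference among mice that received PE. Here 7 of 8 genes fell, at a background of 2.92% of all genes tested called lower, and Ggps1 was not called (log2 fold change −0.20, 95% confidence interval −0.47 to 0.06, adjusted p = 0.372). Idi1 stood at 7.0% of its CD + PE level (log2 fold change −3.84, SE 0.28, adjusted p = 7.83e-08) and Fdps at 11.4% (log2 fold change −3.13, SE 0.30, adjusted p = 1.67e-06). Mvd, Pmvk and Mvk stood at 18.6%, 19.1% and 28.6%, Hmgcs1 at 43% and Acat2 at 44%. Groups did not overlap for 6 of 8 genes, as for 3.96% of all genes tested in that direction. The exception among the genes called was Mvd, where MD + PE replicate 1 at 6.26 CPM lay above CD + PE replicate 1 at 4.98 CPM. Hepatocyte markers were called lower in 3 of 5 (Alb −0.62, Ttr −0.52 and Apoa1 −0.48 on the log2 scale) and stellate cell markers higher in 1 of 4, and their part in the result was not tested. All PE libraries lie on 1 side of the division of libraries.

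**Figure D3:**
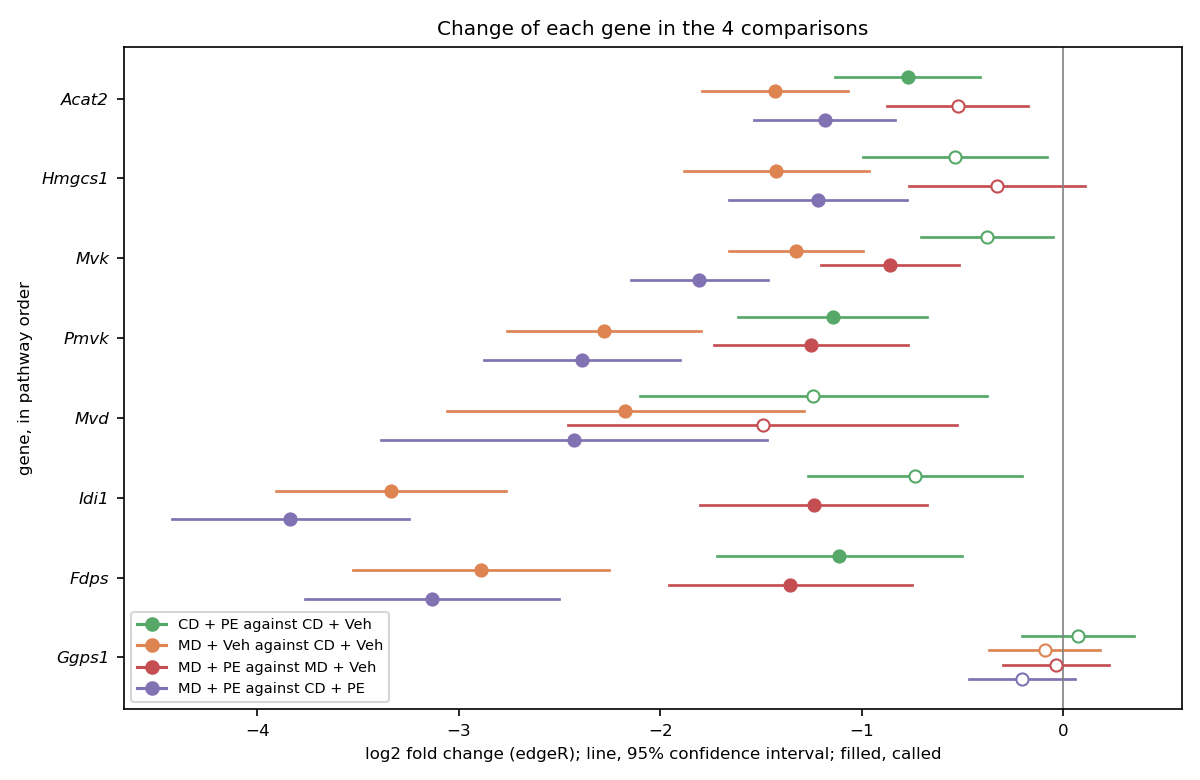
log2 fold change of each gene in the 4 comparisons, in pathway order, with the 95% confidence interval as a line and filled points for genes called. The diet comparisons lie furthest left at Idi1 (−3.34 and −3.84) and Fdps, and all intervals of Ggps1 cross 0.

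Whether PE acted differently in the 2 diets was tested as the interaction of PE and diet. It was called for 0 of 8 genes, and for 1 of all 13597 genes (0.00735%). At an unadjusted p below 0.05, which 8.77% of all genes tested reached, it held 1 of 8 genes, Mvk (log2 difference −0.48, 95% confidence interval −0.95 to −0.01, adjusted p = 0.564 by edgeR's quasi-likelihood test), and DESeq2 also called 0, with 0 at an unadjusted p below 0.05. The intervals of the other genes were wide. That of Pmvk ran from −0.78 to 0.56, that of Fdps from −1.09 to 0.61, that of Idi1 from −1.28 to 0.27 and that of Mvd from −1.54 to 1.04. Differences of the PE effect between diets within these bounds are not excluded.

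The genes also varied together from library to library. On log2 CPM, the 21 pairs among the 7 genes without Ggps1 had a Pearson's r between 0.860 and 0.987 over the 19 libraries. Within groups, after subtracting group means, r of these pairs lay between 0.458 and 0.917. For the 7 pairs with Ggps1, r was 0.269 to 0.395 over all libraries and −0.132 to 0.106 within groups. These are descriptions: genes of a library share its depth and scaling. CD + Veh replicate 4 was the highest of its group in 6 of 8 genes and replicate 3 the lowest in 7 of 8. In CD + PE, replicate 2 was the highest in 7 of 8 and replicate 1 the lowest in 6 of 8. CD + PE replicate 2 also had the highest clock score of all libraries. Its Kupffer cell markers summed to 313 CPM, against a group median of 78.3 CPM. Red blood cell markers summed to 364.5 CPM there, against a group median of 116 CPM. The part of these measures was not tested.

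Genes outside the pathway with the most similar profile over the 19 libraries, by Pearson's r with the mean z-score of the 8 genes, were Msmo1 (r = 0.986), Cyp51 (0.984), Rdh11 (0.979), Pstpip2 (0.978) and Nsdhl (0.978). Msmo1, Cyp51 and Nsdhl act in the steps from lanosterol to cholesterol. The most opposite profiles were those of Pcsk6 (r = −0.934), Gpx1 (−0.925), Chpt1 (−0.923), Hsd17b11 (−0.921) and Abhd3 (−0.920). Among the pathway genes r with this mean was 0.926 to 0.986, except for Ggps1 at 0.470. Each of these genes is itself part of the mean, which raises its r, so these values are not comparable with those of genes outside the pathway.

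Of the 12 genes that lead from farnesyl diphosphate through squalene to cholesterol, 11 fell in MD + Veh against CD + Veh, with a median log2 fold change of −1.79. Of all genes tested, 5.63% were called lower there. Sqle, squalene epoxidase, measured 98.6, 92.0, 61.0 and 134 CPM in CD + Veh and 1.77, 3.28, 1.36, 1.08 and 1.93 CPM in MD + Veh. It fell to 2.0% (log2 fold change −5.65, SE 0.44, adjusted p = 1.55e-07), further than any of the 8 genes before squalene. Nsdhl (−2.67) and Cyp51 (−2.58) fell by amounts between those of Pmvk and Fdps. In CD + PE against CD + Veh 6 of 12 fell (median −0.63), in MD + PE against MD + Veh 6 of 12 (median −0.79) and in MD + PE against CD + PE 11 of 12 (median −1.88). The shares of all genes tested called lower were 1.70%, 0.934% and 2.92% in these comparisons, in this order. For this list and the lists below, calls in fits with the division of libraries or the clock score as a covariate were not examined. CCAAT occurred in 11 of 12 of their promoter windows and TCACNCCA in 1 of 12, against 39.9% and 4.07% of all windows.

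The 14 genes whose products use isoprenoid diphosphates for prenylation, dolichol, ubiquinone or vitamin K, or process proteins once prenylated (Icmt, Rce1, Zmpste24), were, like Ggps1, not called. They include the subunits of farnesyl transferase (Fnta, Fntb) and of the geranylgeranyl transferases (Pggt1b, Rabggta, Rabggtb). The count was 0 of 14 in each of the 4 comparisons and in the interaction by edgeR. At an unadjusted p below 0.05, MD + PE held 5 of 14 against MD + Veh (15.7% of all genes tested) and 4 of 14 against CD + PE (21.7%). Against CD + Veh, CD + PE held 4 of 14 (17.5% of all genes tested) and MD + Veh 3 of 14 (28.6%). Their median log2 fold changes lay between −0.09 and −0.02. CCAAT occurred in 6 of 14 of their promoter windows (42.9%), near the 39.9% of all windows.

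Upstream of the pathway, the 3 genes that supply cytosolic acetyl-CoA fell in each of the 4 comparisons. These are Slc25a1, the mitochondrial citrate carrier, Acly, which cleaves citrate, and Acss2, which activates acetate. Of all genes tested, 0.934% to 5.63% were called lower in the 4 comparisons. In CD + PE against CD + Veh, Slc25a1 only just reached the limit of 0.38 (log2 fold change −0.381, adjusted p = 0.0143 by edgeR's quasi-likelihood test). Acly measured 885, 1350, 923 and 2111 CPM in CD + Veh and 350, 524, 263, 399 and 328 CPM in CD + PE (log2 fold change −1.82, SE 0.24, adjusted p = 0.000663). In MD + Veh its log2 fold change was −2.17, and Acss2 had one of −2.74 and Slc25a1 one of −0.59. In MD + PE against MD + Veh the values were −1.12 for Acly, −1.04 for Acss2 and −0.62 for Slc25a1.

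Of the mitochondrial enzymes that work on the same intermediates to form and use ketone bodies, Acat1, the mitochondrial thiolase, rose in MD + Veh against CD + Veh (log2 fold change 0.44, adjusted p = 0.00122 by edgeR's quasi-likelihood test), as did Bdh1, which interconverts the ketone bodies (0.40, adjusted p = 0.0188), at a background of 4.74% of all genes tested called higher. In CD + PE, with 1.22% of all genes tested called higher, Bdh1 rose as well (0.48, adjusted p = 0.0193), and Acat1 was not called (0.36, adjusted p = 0.0170) because its change was below 0.38. The cytosolic and the mitochondrial thiolase thus had differences of opposite sign in MD + Veh, at −1.43 for Acat2 and 0.44 for Acat1. Neither Acat1 nor Bdh1 was called in MD + PE against MD + Veh (0.17 and 0.13) or against CD + PE (0.24 and 0.05).

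**Figure D4:**
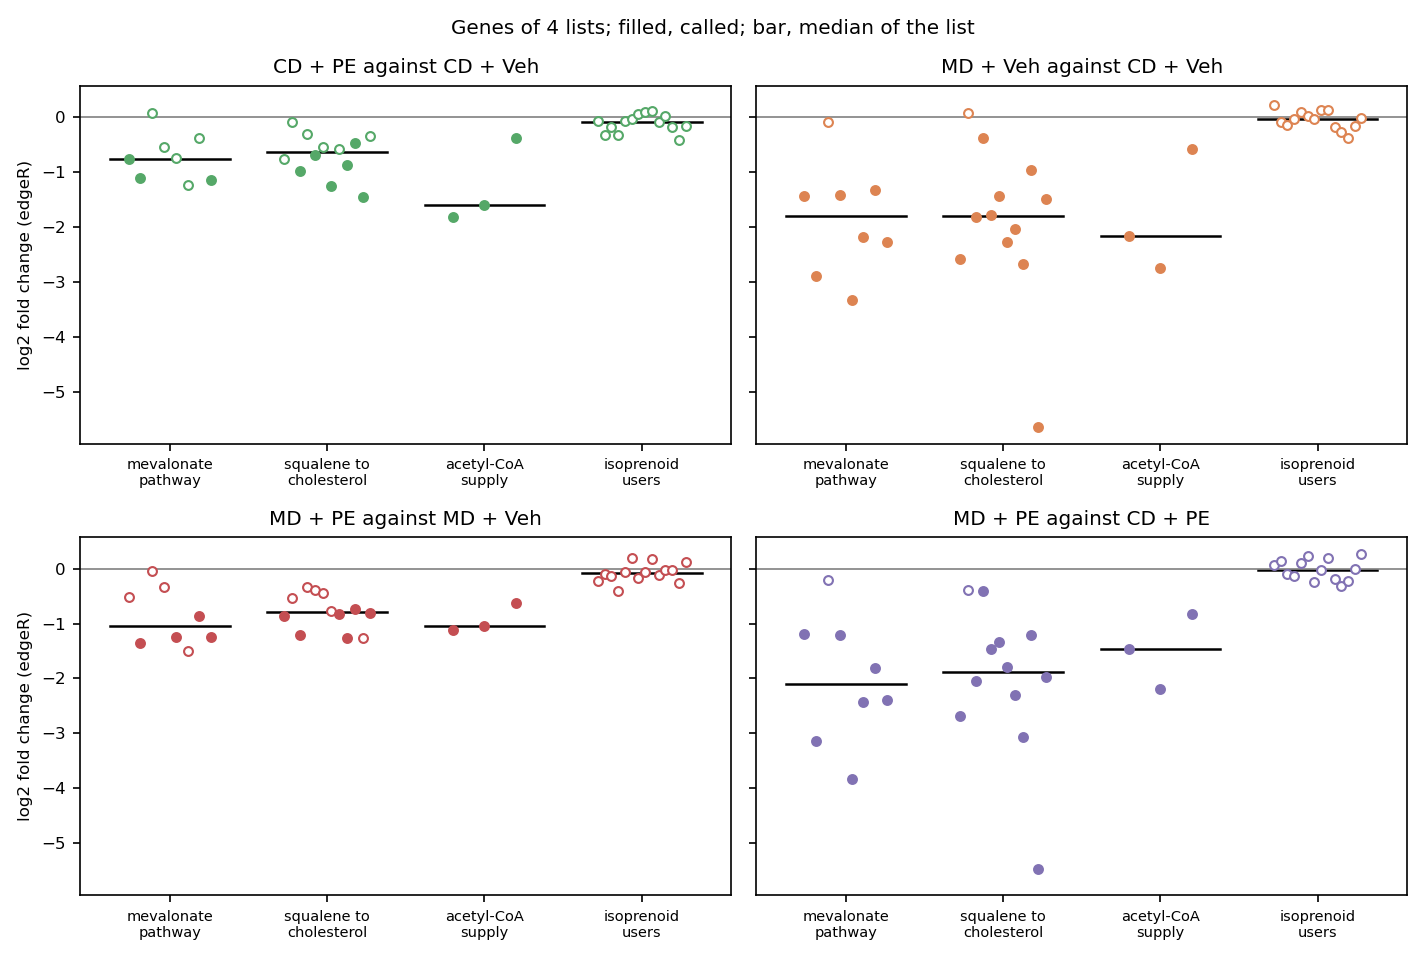
log2 fold changes of the mevalonate pathway genes and of 3 related lists in the 4 comparisons, 1 point per gene, filled where called, with the median of each list as a bar. The lists before and after farnesyl diphosphate and the acetyl-CoA supply have their medians below 0, and the 14 isoprenoid users lie near 0 with no point filled.

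Of 8 genes of sterol sensing, 4 fell and 1 rose in MD + Veh against CD + Veh, where 5.63% of all genes tested were called lower and 4.74% higher. Insig2, which retains the SREBP escort, rose (log2 fold change 1.36, adjusted p = 4.49e-05), and Scap, that escort, fell (−1.07, adjusted p = 2.99e-06). Insig1, the other Insig gene, had a difference of the opposite sign to Insig2 and was not called (−0.76, adjusted p = 0.0677 by edgeR's quasi-likelihood test). Every MD + Veh library lay below every CD + Veh library for Insig1, as for 8.88% of all genes tested. The transcript of SREBP-2 itself fell by less than those of the 7 pathway genes: Srebf2 measured 50.2, 48.1, 42.3 and 56.6 CPM in CD + Veh and 41.2, 39.02, 32.4, 33.7 and 32.3 CPM in MD + Veh (log2 fold change −0.46, SE 0.09, adjusted p = 0.00173). It fell again in MD + PE, which held 28.3, 30.6, 26.2, 24.8 and 26.3 CPM (−0.39 against MD + Veh, adjusted p = 0.0290), and was not called in CD + PE (−0.18, adjusted p = 0.309). In CD + PE 2 of the 8 fell, in MD + PE against MD + Veh 3, and in MD + PE against CD + PE 5, with 2 that rose where 1.69% of all genes tested were called higher. Called lower were 1.70%, 0.934% and 2.92% of all genes tested in these comparisons, in this order.

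A near copy and neighbouring genes were examined because reads can be shared. Acat3 lies beside Acat2 on chromosome 17, and their canonical transcripts are 97.7% identical over 1477 aligned bases, so that reads may be divided between the genes with error. Acat3 rose in CD + PE, where Acat2 fell: it measured 182, 222, 244 and 151 CPM in CD + Veh and 277, 253, 314, 251 and 260 CPM in CD + PE (log2 fold change 0.44, adjusted p = 0.0327). In MD + Veh it rose as well (0.43, adjusted p = 0.0146). It was not called in MD + PE against CD + PE (−0.08, adjusted p = 0.717), where Acat2 fell by 1.18 on the log2 scale, or in MD + PE against MD + Veh (−0.07, adjusted p = 0.825), where Acat2 had a log2 fold change of −0.52. Acat2 and Tcp1 overlap by 1700 bases on opposite strands. Idi2, the copy of Idi1, held 0 counts in every library, and the 5 Idi1 pseudogenes listed held at most 30 counts in a library.

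Mvk shares its promoter region with Mmab, a gene of cobalamin metabolism that runs away from it on the opposite strand. The 93 bases between the genes, with 1 CCAAT on the opposite strand in capitals, are shown because both genes start from them.
Mmab to Mvk, chr5:114582174-114582266, plus strand: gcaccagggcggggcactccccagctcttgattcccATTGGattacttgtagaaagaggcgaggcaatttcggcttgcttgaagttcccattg
Mmab measured 26.5, 32.7, 26.8 and 29.2 CPM in CD + Veh and 19.01, 17.6, 16.6, 15.48 and 20.5 CPM in MD + Veh. The groups did not overlap, and its log2 fold change was −0.69, beside −1.33 for Mvk. In MD + PE against MD + Veh the values were −0.67 for Mmab and −0.86 for Mvk, both called. In CD + PE they were −0.26 and −0.38, and neither was called.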

How the data were processed

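Poly(A) RNA of whole liver was sequenced. Per the submitters' processing notes the authors used fastp 0.23.4, Salmon 1.10.3 and GRCm39. They trimmed reads, quantified them against the GENCODE transcriptome and summarised transcripts per gene with tximport. The deposited values are the authors' estimated counts per gene, held as whole numbers without normalization or filter, with every mouse kept separate. The notes also name DESeq2. The GENCODE release is not given in the sources used here. Conditions came from sample titles and treatment labels, and columns from sample descriptions. All labels give 1 batch.

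Counts were fitted over all 19 libraries in R 4.3.3 with edgeR 4.0.16 (TMM normalization, filterByExpr, quasi-likelihood F test), using 1 coefficient per group. Calls needed a log2 fold change of 0.38 or more in either direction and a p, adjusted by Benjamini-Hochberg, under 0.05, as in the paper's methods. SE were derived from the log2 fold change and F (log2 fold change over root F). CPM are scaled by TMM, and 1 CPM stands for about 10 to 16 counts. Log2 CPM used a prior count of 2. Over 36 pairs of libraries of 1 group, at most 1.85% of genes had identical counts, so no library was counted as a copy. The fit was tested on simulated data.

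Alternatives were RLE normalization, DESeq2 1.42.0, no filter, a filter asking for 10 counts in every library of a group, no minimum fold change, only the groups compared, thinning to equal depth, the replicate number as a block, covariates for the division of libraries and the clock score, and each library left out. Fits within 1 side of the division were chosen after seeing the data. Positions and promoters are from GRCm39 and GENCODE vM39, read with Python 3.11; the Acat2 and Acat3 transcripts were aligned with Biopython 1.88. The members and gene lists were chosen with earlier results of these data known. From each related list the 3 called genes with the largest change in MD + Veh against CD + Veh were to be named. Srebf2, Insig1 and the isoprenoid users are named outside this rule, chosen with their values in view. Some genes that the paper or this rule names are not reported here, and spatial data were not analysed here.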

Additional observations from a re-analysis of the deposited data

How the results depend on the processing

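Counts of pathway genes called stayed at 7 in both diet comparisons and at 0 for the interaction under every alternative run, each library left out included. In CD + PE against CD + Veh the count of 3 became 0 with the division of libraries as a covariate and 1 with the clock score. With only the groups compared it was 2, and with 1 library left out it ran from 1 to 3. In MD + PE against MD + Veh the count of 4 became 0 with the division as a covariate and 0 within 1 side of it, and ran from 2 to 5 with 1 library left out. In these PE comparisons the fits with the division had longer SE, except for Acat2 within 1 side of it (0.160 against 0.167). Further causes were not tested.

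The labels share replicate numbers across groups. In 27 library pairs that share a number, deviations from group means correlated with a median r of 0.0293 (−0.245 to 0.410), above 0.1 in 6 pairs, and the samples were treated as unpaired. With the replicate block 3, 7, 4, 7 and 0 pathway genes were called, as without it.

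Signs changed only in values that were not called. The log2 fold change of Ggps1 was −0.43 in CD + PE with the division as a covariate, 0.082 in MD + Veh with the clock score and −0.102 to 0.066 in MD + PE against MD + Veh with 1 library left out. For the interaction, ranges with 1 library left out were −0.042 to 0.384 for Acat2, −0.016 to 0.39 for Hmgcs1, −0.348 to 0.055 for Pmvk and −0.63 to 0.038 for Mvd. With the clock score it was 0.089 for Pmvk and 0.042 for Mvd, and with the division 0.11 for Ggps1. The cause was not tested.

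Counts over all genes moved as well. In CD + PE, 397 calls became 37 with the division and 242 with the clock score, and in MD + Veh 1410 became 371 with the clock score. In MD + PE against MD + Veh, 147 became 33 with the division, 18 within 1 side of it, 73 with only the groups compared and 303 by DESeq2. In MD + PE against CD + PE, 627 became 964 without a minimum fold change. The interaction called 1 gene, and 41 with the replicate block, 54 with the division, 82 by DESeq2 and 0 with the clock score. Depth limits Mvd and Mvk most, with 16 and 35 counts in their lowest libraries.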
